A study of Rattus norvegicus with 3 samples.

Results

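The keratin genes were taken as every gene of the rat count tables whose symbol is Krt followed by a number and at most 1 letter. That rule gave 53 of 34034 genes, 28 of type I and 25 of type II. Their transcripts were followed across the cell labels of a droplet single-cell library of thymic stroma from 8-week-old Lewis rats, an inbred strain. For that library, thymi were digested by Liberase TH plus DNase I, and cells without CD45, the common leukocyte antigen, were enriched magnetically and then by flow sorting. A second library held thymocytes, the developing T cells, freed with collagenase D and DNase I from the same strain at the same age. Each library is 1 sample, and how many animals it pools is not given in the sources used here, so there is no replicate error and no test: every interval below is a 95% interval that covers counting error only. A spatial section of the thymus belongs to the series; keratins in it were not analysed here.

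Keratins are the intermediate filament proteins of epithelial cells, and a filament is built from pairs of 1 acidic type I and 1 basic type II chain. Krt5 with Krt14 is the classical pair of basal, proliferating layers of stratified epithelium, Krt8 with Krt18 the pair of simple, single-layered epithelium, and Krt1 with Krt10 the pair of differentiating epidermis. In the thymus, cortical epithelium is conventionally recognised by Krt8 and Krt18 and medullary epithelium by Krt5 and Krt14. The medulla also holds cells that resemble peripheral tissues (called mimetic cells) and cells that express the regulator Aire, which switches on genes of many tissues for T cell selection.

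The authors' labels were used as deposited: a cell's projected label where it had one, and otherwise the authors' own cluster. They name cTEC (cortical thymic epithelium), early Pr (an early progenitor), mTEC1, mTEC2 and mTEC-prol (medullary labels) and mimetic cells of several kinds; the labels do not spell out aaTEC1, aaTEC2, TEPC, MEC, nmSC, TMC and capFb, which are kept as written. The labels were made from the same counts, so differences between them describe the labels. The stromal library had 13226 labelled cells with 131624350 UMIs (unique molecular identifiers, each standing for 1 captured transcript) and a median of 9087.5 UMIs per cell; the thymocyte library had 8546 labelled cells with 64440495 UMIs and a median of 3994. Of all barcodes, 38 occurred in both libraries. Of 29 stromal labels, 24 held at least 20 cells, and 14 labels were epithelial, with 2304 cells, or 17.4% of the labelled cells. Levels are the UMIs of a gene summed over a label's cells, scaled to 1000000 UMIs of that label (CPM). Levels are compared across labels within 1 keratin. Where different keratins are ranked or set in ratio, the values are counts of captured UMIs, not corrected for differences between genes.

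Of the 53 keratins, 49 had at least 1 UMI in a labelled stromal cell; Krt33b, Krt34, Krt40 and Krt85 had none. The detected set was uneven: 22 keratins had at least 100 UMIs, 13 had 10 to 99 and 14 had fewer than 10. The 10 with the most UMIs were Krt14 (98715 UMIs), Krt5 (79310), Krt17 (41613), Krt8 (26897), Krt15 (26563), Krt18 (22944), Krt19 (20467), Krt13 (16061), Krt7 (10476) and Krt10 (3814), and they held 98.7% of all keratin UMIs. Epithelial labels held 94.8% of keratin UMIs. All 53 symbols matched RefSeq genes of the GRCr8 assembly, 26 on chromosome 7 and 27 on chromosome 10. These are the type II and the type I cluster, with Krt18 the 1 type I gene that lies on chromosome 7, beside Krt8.

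Promoter sequence is shown for 6 keratins whose levels part or move together in the results below: Krt5 and Krt71, adjacent genes with different patterns among medullary labels; Krt8, of the simple pair; Krt75, highest in mTEC2; and Krt20 and Krt23, adjacent genes that, among labels of at least 20 cells, are both highest in a fibroblast label. Each line is the 250 bases before the annotated start, 5′ to 3′ on the gene's own strand, from RefSeq on GRCr8; all 6 genes lie on the minus strand. Positions are chr7:134730570-134730819 for Krt5, chr7:135010340-135010589 for Krt8, chr7:134761034-134761283 for Krt71, chr7:134576075-134576324 for Krt75, chr10:84890286-84890535 for Krt20 and chr10:84946930-84947179 for Krt23. Capitals mark the letters TATAAA, the core of a TATA box, found on either strand; in Krt8 a site on each strand overlaps the other.
Krt5: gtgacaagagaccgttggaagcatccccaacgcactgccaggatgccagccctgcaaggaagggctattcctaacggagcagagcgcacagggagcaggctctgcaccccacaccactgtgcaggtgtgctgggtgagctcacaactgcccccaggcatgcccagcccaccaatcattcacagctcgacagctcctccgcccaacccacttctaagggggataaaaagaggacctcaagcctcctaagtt
Krt71: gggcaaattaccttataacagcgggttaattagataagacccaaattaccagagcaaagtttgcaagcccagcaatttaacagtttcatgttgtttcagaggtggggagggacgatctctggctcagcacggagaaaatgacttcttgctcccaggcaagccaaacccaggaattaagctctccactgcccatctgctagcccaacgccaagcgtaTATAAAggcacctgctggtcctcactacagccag
Krt8: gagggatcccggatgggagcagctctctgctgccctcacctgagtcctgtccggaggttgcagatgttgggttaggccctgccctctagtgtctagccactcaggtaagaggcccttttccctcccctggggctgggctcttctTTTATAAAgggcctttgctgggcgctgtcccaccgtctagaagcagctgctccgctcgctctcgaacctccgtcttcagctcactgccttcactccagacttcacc
Krt75: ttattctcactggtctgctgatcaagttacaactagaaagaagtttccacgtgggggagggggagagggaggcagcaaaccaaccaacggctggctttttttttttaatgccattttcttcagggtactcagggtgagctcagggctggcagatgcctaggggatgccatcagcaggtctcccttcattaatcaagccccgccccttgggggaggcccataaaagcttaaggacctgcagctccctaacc
Krt20: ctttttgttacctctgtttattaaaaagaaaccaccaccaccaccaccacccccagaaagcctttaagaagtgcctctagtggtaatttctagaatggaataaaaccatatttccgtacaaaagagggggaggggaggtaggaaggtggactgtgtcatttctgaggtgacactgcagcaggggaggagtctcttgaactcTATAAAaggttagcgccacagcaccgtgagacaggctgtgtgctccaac
Krt23: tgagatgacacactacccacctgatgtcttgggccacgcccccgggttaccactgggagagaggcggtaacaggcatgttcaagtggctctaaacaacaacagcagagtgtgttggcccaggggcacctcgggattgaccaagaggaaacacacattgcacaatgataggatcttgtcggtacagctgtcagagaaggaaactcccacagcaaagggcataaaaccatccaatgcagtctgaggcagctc
The table of promoters held 38 of the 53 keratins. TATAAA occurred on either strand of the 250 bases in 21 of those 38 (55.3%), beside 13.1% of all 27457 promoters of the same length. Within positions -40 to -16 of the start and on the gene's own strand it occurred in 9 of 38 (23.7%), beside 1.5% of all promoters. Krt71 had it at -34, Krt20 at -49 and Krt8 at -104, while the windows of Krt5, Krt75 and Krt23 did not hold these letters. CCAAT occurred in 50.0% of keratin promoters and 34.3% of all, GGGCGG (a GC box) in 13.2% and 32.4%, and TGANTCA (the AP-1 letters) in 2.63% and 6.36%; each was searched on either strand, and sites that overlap another motif were kept. A match is a description of the letters only.

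The summed keratin level was highest in mTEC1 among the main labels. It was 15255 CPM (15160 to 15351) in the 482 mTEC1 cells, 13881 CPM (13685 to 14080) in the 76 mTEC-prol cells, 12292 CPM (12195 to 12390) in the 448 cTEC cells, 10813 CPM (10755 to 10872) in the 1018 early Pr cells and 7784 CPM (7600 to 7971) in the 61 mTEC2 cells. The mimetic labels of at least 20 cells were lower still: goblet 5638 CPM, tuft 4575 CPM and muscle 4557 CPM. Type I UMIs outnumbered type II UMIs 2.21 to 1 in early Pr, 1.99 to 1 in mTEC1 and 1.82 to 1 in cTEC, but only 1.20 to 1 (1.14 to 1.26) in mTEC2 and 0.95 to 1 (0.85 to 1.06) in mimetic(tuft). The progenitor and the cTEC labels had Krt14 and Krt5 above their levels in mTEC2 and Krt8 and Krt18 below them, the medullary labels ran from a basal to a simple pattern, and most mimetic cells carried Krt8 and Krt18 with few other keratins, as the map of keratin levels by label shows.

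**Figure D1:**
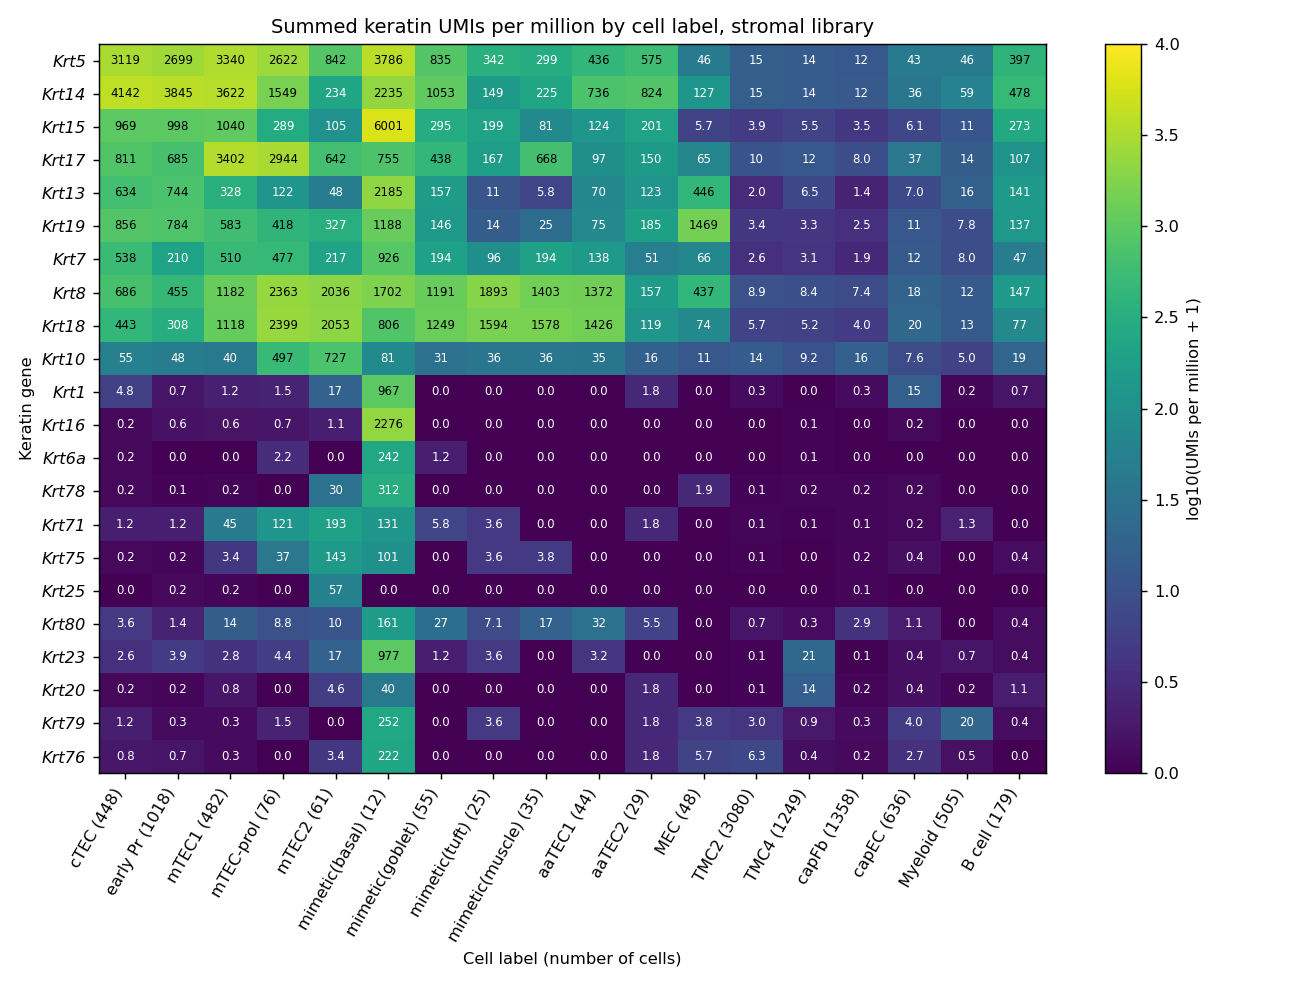
Summed level (CPM) of 22 keratins (rows) in 18 labels of the stromal library (columns, cell numbers in brackets); colour is log10(CPM + 1) and the printed number is the level itself. Krt14 was between 1549 and 4142 CPM in cTEC, early Pr, mTEC1 and mTEC-prol and 234 CPM in mTEC2. Krt8 and Krt18 led in mTEC-prol and mTEC2, Krt75 and Krt25 stood out in mTEC2, and Krt71 was high in both mTEC2 and mTEC-prol.

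The basal pair was high in cTEC, early Pr, mTEC1 and mTEC-prol and lower in mTEC2. Krt14 stood at 4142 CPM in cTEC, 3845 CPM in early Pr, 3622 CPM in mTEC1, 1549 CPM in mTEC-prol and 234 CPM (203 to 269) in mTEC2. Krt5 stood at 3119, 2699, 3340, 2622 and 842 CPM in the same labels in that order. Krt14 thus varied more across these labels than its partner: the ratio of Krt5 to Krt14 UMIs was 0.70 in early Pr, 0.75 in cTEC, 0.92 in mTEC1, 1.69 (1.60 to 1.79) in mTEC-prol and 3.60 (3.08 to 4.22) in mTEC2. Krt15, a keratin of basal and progenitor-rich layers, was alike in early Pr (998 CPM), cTEC (969 CPM) and mTEC1 (1040 CPM) and lower in mTEC-prol (289 CPM) and mTEC2 (105 CPM, with 89.1% of its UMIs in 2 cells). Krt17, which in skin marks appendages and activated keratinocytes, took another order: 3402 CPM in mTEC1, 2944 CPM in mTEC-prol, 811 CPM in cTEC, 685 CPM in early Pr and 642 CPM in mTEC2.

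The simple pair ran the opposite way. Krt8 stood at 455 CPM (443 to 467) in early Pr, 686 CPM in cTEC, 1182 CPM in mTEC1, 2036 CPM in mTEC2 and 2363 CPM (2282 to 2446) in mTEC-prol. Krt18 stood at 308, 443, 1118, 2053 and 2399 CPM in the same order. The cTEC label therefore held less of both than any of the 3 medullary labels, whereas its Krt14 was above mTEC1 and its Krt5 just below. The partners also changed in proportion: Krt8 to Krt18 was 1.48 in early Pr and 1.55 (1.47 to 1.63) in cTEC, but 1.06 (1.02 to 1.09) in mTEC1, 0.98 in mTEC-prol and 0.99 in mTEC2. Krt7, another simple-epithelium keratin, was level between cTEC (538 CPM), mTEC1 (510 CPM) and mTEC-prol (477 CPM) and lower in mTEC2 (217 CPM) and early Pr (210 CPM). Krt19, a type I keratin of simple and some basal epithelia, declined from cTEC (856 CPM) and early Pr (784 CPM) through mTEC1 (583 CPM) to mTEC2 (327 CPM), and Krt13, of non-cornified stratified epithelium, from early Pr (744 CPM) and cTEC (634 CPM) through mTEC1 (328 CPM) to mTEC2 (48.0 CPM).

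Most cells carried both patterns at once. To compare shares at equal depth, each cell was thinned to 3000 UMIs, which left out shallower cells. A UMI of Krt5 together with one of Krt8 was then found in 91.8% of 73 mTEC-prol cells (83.0% to 96.9%, exact binomial interval), 82.6% of 454 mTEC1 cells (78.8% to 86.0%), 71.5% of 411 cTEC cells (66.9% to 75.8%), 68.9% of 1002 early Pr cells (65.9% to 71.7%) and 45.5% of 55 mTEC2 cells (32.0% to 59.4%). The remainder differed in kind: Krt5 without Krt8 made up 29.0% of early Pr and 22.1% of cTEC cells and 0 of 55 mTEC2 cells, where Krt8 without Krt5 made up 41.8%. Without thinning, both keratins were found in 92.5% of early Pr, 90.6% of cTEC and 93.6% of mTEC1 cells and in 59.0% of mTEC2 cells. In the largest fibroblast label, TMC2, which should lack both, the thinned share with both was 0.2% of 3049 cells, at a median depth of 8269.5 UMIs beside 10535 in cTEC.

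**Figure D2:**
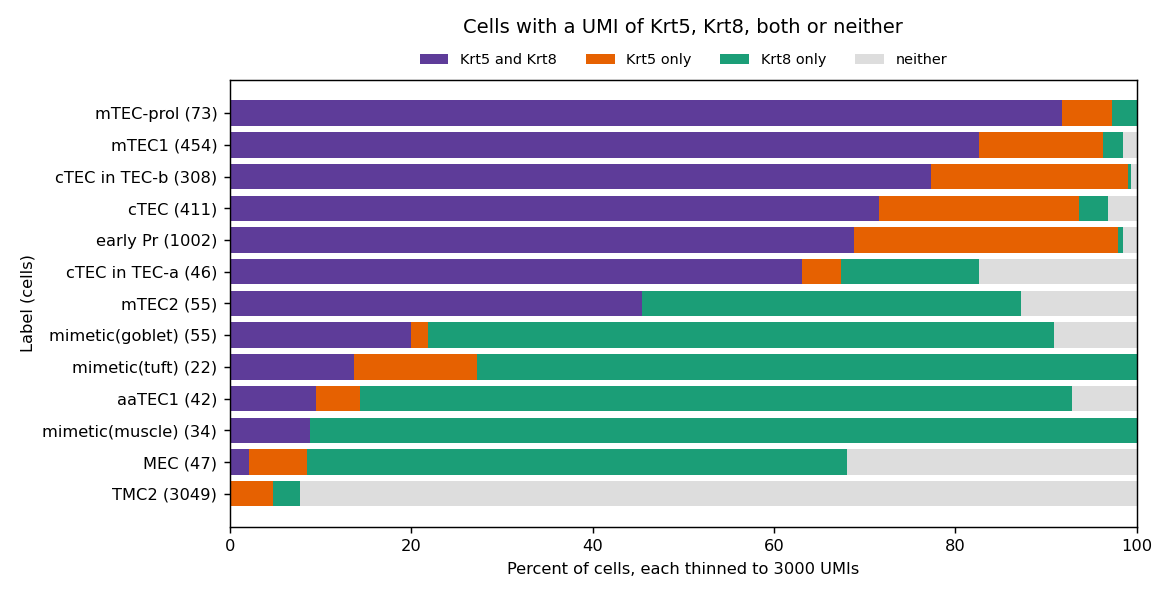
Share of cells with a UMI of Krt5, of Krt8, of both or of neither after each cell was thinned to 3000 UMIs; numbers in brackets are the cells left. Cells with both keratins make up most of mTEC-prol, mTEC1, cTEC and early Pr, while Krt8 alone makes up 69.1% of mimetic(goblet) and 91.2% of mimetic(muscle).

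The cTEC label joined cells with contrasting keratins, which the authors' clusters keep apart. Of its 448 cells, 311 came from the cluster TEC-b, 72 from TEC-a, 55 from TEC-c and 5 each from TEC-d and Endo-2. In the TEC-a cells Krt14 stood at 167 CPM (135 to 203), Krt5 at 556 CPM and Krt19 at 15.3 CPM (7.0 to 29.1). In the TEC-b cells they stood at 5370, 3954 and 1085 CPM. Krt8 and Krt18 moved the other way and less, from 708 and 455 CPM in TEC-b to 1064 and 711 CPM in TEC-a, and Krt7 from 563 to 834 CPM.

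Set side by side, the TEC-a cells had Krt14 at a level 32.2-fold (26.4 to 39.7) below the TEC-b cells, Krt19 70.9-fold (37.3 to 155) below, Krt13 15.9-fold, Krt15 15.4-fold and Krt5 7.10-fold (6.37 to 7.95) below. A difference was counted where levels differed at least 3-fold on at least 20 UMIs in the 2 groups together; for this count a group with fewer than 3 UMIs was set to 3, while the ratios printed are those of the UMIs observed. By that rule 5 of 13 keratins with enough UMIs were lower in the TEC-a cells, beside 16.3% of all genes, and 1 was higher, beside 6.75%. The 1 higher keratin was Krt1, with 22 UMIs against 2, a ratio of 63.7 (15.6 to 558). Cortical markers went both ways. Ccl25, a cortical chemokine, was at 2348 CPM in the cTEC cells of TEC-a and 271 CPM in those of TEC-b, and Psmb11, a proteasome subunit of cortical epithelium, at 39.1 and 7.1 CPM. Prss16, a cortical protease (145 and 228 CPM), and Ly75, a receptor of cortical epithelium (191 and 1153 CPM), were lower in TEC-a than in TEC-b, and Epcam, the general epithelial adhesion molecule, was at 71.5 CPM in TEC-a and 1175 CPM in TEC-b. The 5 cortical markers in the file summed to 3785 CPM in TEC-a and 4405 CPM in TEC-b, with none at 0. The anchoring genes were lower along with Krt5 and Krt14: all 9 hemidesmosome genes with enough UMIs were at least 3-fold lower in the TEC-a cells (median -3.68 on the log2 scale, beside -0.38 over all genes), and 6 of 10 desmosome genes were, with none higher in either list. Of 14 regulators of epithelial genes, 6 were lower, Tp63, the p63 factor of basal epithelium, among them, and Znf750, of epidermal differentiation, was higher. Median depth was 4518.5 UMIs in the cTEC cells of TEC-a and 10757 UMIs in those of TEC-b, and its part in the difference was not tested.

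A further 55 cTEC, 120 early Pr and 54 mTEC1 cells lay in the cluster TEC-c. Their keratins were lower than in TEC-b cells of the same label: Krt14 was at 2346 CPM in cTEC, 2064 CPM in early Pr and 2753 CPM in mTEC1 cells of TEC-c, beside 5370, 4268 and 6014 CPM in TEC-b. These same cells held fibroblast transcripts: the 6 fibroblast markers summed to 18923 CPM in cTEC in TEC-c, 21498 CPM in early Pr in TEC-c and 12800 CPM in mTEC1 in TEC-c, against 630 CPM in cTEC in TEC-b, 641 CPM in early Pr in TEC-b and 516 CPM in mTEC1 in TEC-b. The part of those transcripts in the lower keratin levels was not tested. Without the clusters TEC-c and Endo-2, an alternative chosen after the data were seen, the summed keratin level was 13543 CPM in cTEC, 11922 CPM in early Pr and 16148 CPM in mTEC1, in the same order as before.

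**Figure D3:**
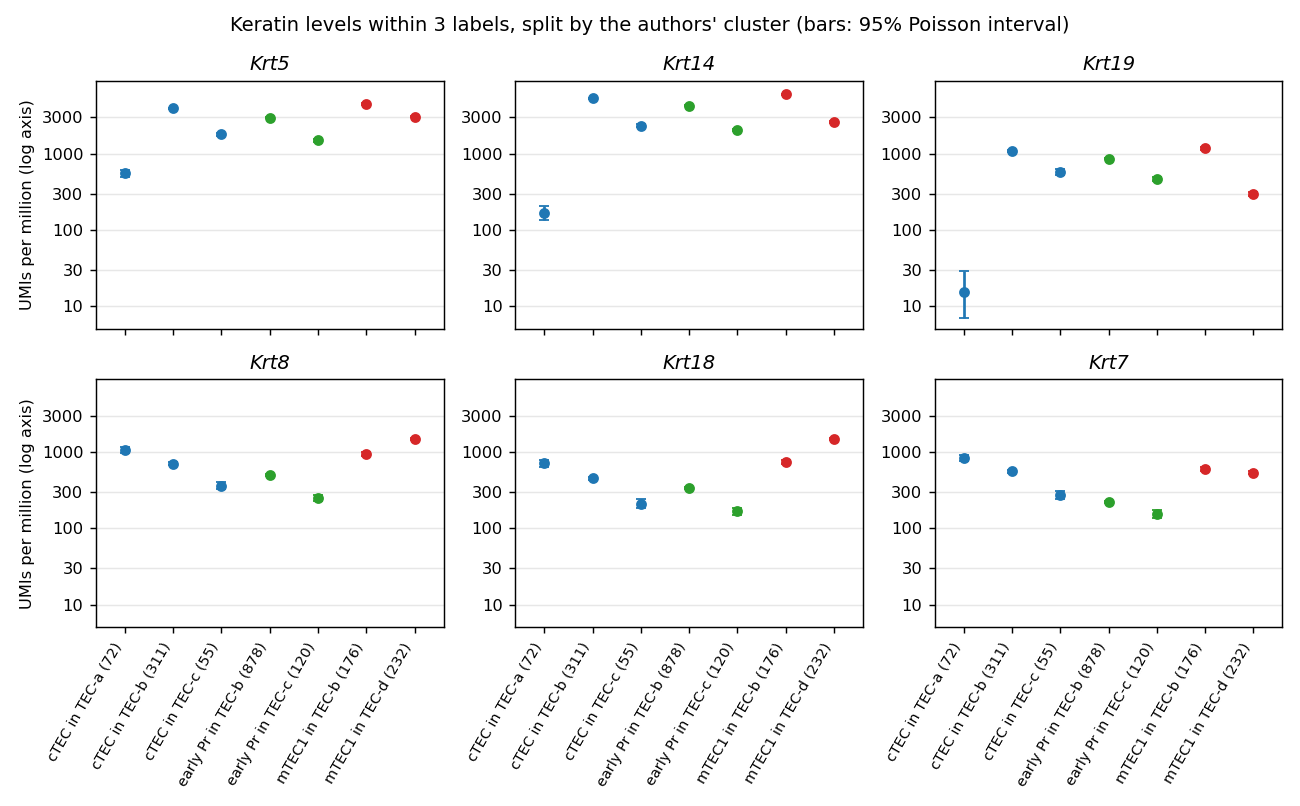
Levels of 6 keratins (CPM, log axis) in the cells of cTEC (blue), early Pr (green) and mTEC1 (red), split by the authors' cluster, with 95% Poisson intervals. Krt14 and Krt19 are lowest in the 72 cTEC cells of TEC-a, whose Krt8, Krt18 and Krt7 are above those of the 311 cTEC cells of TEC-b.

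Few keratins, like few genes of any kind, passed the fold between the early progenitor label and cTEC. Of 16 keratins with enough UMIs, 0 were at least 3-fold higher in early Pr, beside 0.765% of all genes, and 1 was at least 3-fold lower, beside 1.69%. That one was Krt1, with 8 UMIs in early Pr against 24 in cTEC, a level 7.30-fold lower (3.17 to 18.8), and 22 of those 24 UMIs came from the TEC-a cells. Against the cTEC cells of TEC-b alone, 0 of 14 keratins passed in either direction, beside 3.97% of genes higher and 0.811% lower, and the median keratin stood at -0.47 on the log2 scale, beside -0.03 over all genes. Against those of TEC-a, 5 of 14 were higher, beside 12.9% of genes, and 2 lower, beside 6.54%: Krt19, Krt14, Krt13, Krt15 and Krt5 were higher in early Pr, with Krt14 at 23.1-fold (18.9 to 28.4), and Krt1 and Krt7 were lower, with Krt7 at 3.96-fold (3.59 to 4.37). By these counts early Pr stood nearer to the cTEC cells of TEC-b than to those of TEC-a. Of the early Pr cells themselves, 878 (86.2%) lay in TEC-b and 3 in TEC-a. The clusters were made from the same counts, so this nearness describes the clusters. Among desmosome genes, which anchor keratin filaments at cell junctions, 0 of 11 passed between early Pr and cTEC, and among hemidesmosome genes, which anchor them to the basement membrane, 0 of 9. Over all genes 0.765% were higher and 1.69% lower, so 0 in these lists is near that share. Of 16 regulators of epithelial genes, Foxn1, the master regulator of thymic epithelium, was lower in early Pr (17.0 against 54.7 CPM), as was Znf750 (2.39 against 8.22 CPM).

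Between mTEC1 and cTEC, 4 of 17 keratins were at least 3-fold higher in mTEC1, beside 5.51% of all genes, and 1 was lower, beside 2.14%. Krt71, a type II keratin known from the inner root sheath of hair, was at 45.2 CPM (40.2 to 50.7) in mTEC1 and 1.2 CPM in cTEC, a ratio of 37.6 (17.1 to 103). Krt17 was 4.19-fold (4.05 to 4.34) higher and Krt80, a type II keratin of differentiating epithelia, 3.88-fold (2.32 to 6.84). Krt75, a hair follicle keratin, had 22 UMIs against 1, a ratio of 17.1 (2.76 to 704). The lower one was Krt1, at 8 UMIs against 24. Against the cTEC cells of TEC-a alone, 7 of 16 keratins were higher in mTEC1, beside 15.1% of genes, and 1 (Krt1) lower, beside 5.2%, with Krt19 at 38.1-fold and Krt14 at 21.7-fold; Krt80 (90 UMIs against 2) and Krt75 (22 against 0) did not pass there. Against those of TEC-b alone Krt1, with 2 UMIs there, did not pass either. Early Pr stood to mTEC1 much as cTEC did: 5 of 16 keratins were lower in early Pr, beside 5.86% of genes, and 0 higher, beside 1.70%. These were Krt71 (39.2-fold lower, 23.0 to 72.7), Krt75 (2 UMIs against 22), Krt80 (9.99-fold), Krt17 (4.97-fold) and Krt18 (3.63-fold, 3.48 to 3.77). Early Pr serves in both of its comparisons and cTEC and mTEC1 in 2 each, so these counts are not independent of each other. Among other genes of intermediate filaments, Bfsp1, a lens filament protein, and the lamins Lmnb1 and Lmnb2 were higher in mTEC1 than in cTEC, 3 of 7 with enough UMIs. No desmosome gene of 10 and no hemidesmosome gene of 9 passed. Over all genes 5.51% were higher and 2.14% lower, so 0 in lists this short is near that share.

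Within mTEC1, keratins followed the authors' clusters as well. The 232 mTEC1 cells of TEC-d had Krt17 at 4655 CPM, Krt8 at 1483 CPM, Krt18 at 1496 CPM, Krt14 at 2609 CPM and Krt13 at 95.3 CPM. The 176 mTEC1 cells of TEC-b had Krt17 at 2192 CPM, Krt8 at 946 CPM, Krt18 at 746 CPM, Krt14 at 6014 CPM and Krt13 at 781 CPM. Krt71 was at 72.9 CPM in the former and 10.8 CPM in the latter, a ratio of 6.73 (4.27 to 11.2). Of 15 keratins, 3 were at least 3-fold higher in TEC-d (Krt71, Krt80 at 4.43-fold and Krt75, with 22 UMIs against 0, at least 3.66-fold on a floor of 3 UMIs), beside 9.47% of genes. A further 3 were lower (Krt13 at 8.19-fold, Krt19 at 4.0-fold and Krt12, a keratin known from cornea, at 4.74-fold), beside 3.35%. The mTEC1 cells of TEC-b thus had Krt14 and Krt13 levels close to the cTEC cells of TEC-b (5370 and 783 CPM), with Krt17 higher than the 953 CPM of those cells.

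The mTEC2 label, in which Aire was at 468 CPM beside 0.47 CPM in mTEC1, differed from mTEC1 in many keratins. Of 20 keratins with enough UMIs, 8 were at least 3-fold higher in mTEC2 than in mTEC1, beside 10.6% of all genes, and 5 were lower, beside 5.88%. Krt10, of differentiating epidermis, was at 39.8 CPM in mTEC1, 497 CPM in mTEC-prol and 727 CPM (671 to 785) in mTEC2, 18.3-fold (15.8 to 21.2) above mTEC1. Its partner in epidermis, Krt1, was at 17.1 CPM (9.59 to 28.3) in mTEC2 with 15 UMIs in all. Krt75 was 41.8-fold (26.4 to 69.0) higher, at 143 CPM, and Krt71 4.27-fold (3.51 to 5.18), at 193 CPM. Krt25, an inner root sheath keratin of type I, had 50 UMIs against 1 (ratio 367, 63.0 to 14801), Krt78 26 against 1 and Krt84, a hard keratin, 21 against 2. Krt25, Krt78 and Krt84 reached the minimum of 20 UMIs only through mTEC2, so their calls were nearly fixed in advance. The count of 8 is therefore not read as an excess over all genes. Krt23 was 6.12-fold (2.87 to 12.9) higher on 15 UMIs.

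The keratins that were lower in mTEC2 than in mTEC1 were all of the basal or stratified kind: Krt14 (15.5-fold, 13.5 to 17.8), Krt15 (9.89-fold), Krt13 (6.85-fold), Krt17 (5.3-fold) and Krt5 (3.97-fold, 3.69 to 4.27). Of 9 hemidesmosome genes, 6 were also at least 3-fold lower in mTEC2, beside 5.88% of all genes, with Col17a1 at 57.1 against 271 CPM, Itgb4 at 54.8 against 280 CPM, Lamb3 at 2.29 against 67.2 CPM, Dst at 77.7 against 693 CPM, and Cd151 and Lama3; none was higher, and the median of the list was -2.25 on the log2 scale, beside -0.12 over all genes. Of 17 regulators, Tp63, the p63 factor of basal epithelium, was lower (57.1 against 294 CPM) with Pax9, and Ehf (58.3 against 13.1 CPM), Grhl1 and Tfap2c, factors of epithelial differentiation, were higher. Of 9 genes of keratinocyte differentiation, 5 were higher, beside 10.6% of all genes (Sbsn, Krtdap, Sprr1a, Sprr1b and Lypd3), and of 12 junction genes of simple epithelium 4 were (Ocln, Tjp3, Cldn7 and Cldn3), with none lower in either list.

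Cell by cell, the rare keratins of mTEC2 were patchy, as the map of single mTEC2 cells shows. Of 61 cells, 34 had a Krt10 UMI, 30 had Krt75, 15 had Krt71, 5 had Krt25, 4 had Krt84, 4 had Krt78 and 2 had Krt77, while 40 had an Aire UMI. A few cells held most of the UMIs: 2 cells held 110 of 169 Krt71 UMIs (65.1%), 2 cells held 34 of 50 Krt25 UMIs (68.0%), 1 cell held 21 of 26 Krt78 UMIs, 1 held 14 of 21 Krt84 UMIs and 1 held 14 of 15 Krt77 UMIs. Of the cells, 35 (57.4%) had at least 1 of these 6 keratins besides Krt10, 5 had 3 or more, and no cell had more than 4. Krt71 and Krt75 were found together in 11 cells, 73.3% of the Krt71 cells and 36.7% of the Krt75 cells. In mTEC-prol, by contrast, Krt71 was spread over 32 of 76 cells with at most 19 UMIs in 1, and in mTEC1 over 83 of 482. The Krt71 level was 128 CPM in the 70 mTEC-prol cells of TEC-d, beside 193 CPM in mTEC2. Krt77, Krt78 and Krt84 were named after their values were seen.

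**Figure D4:**
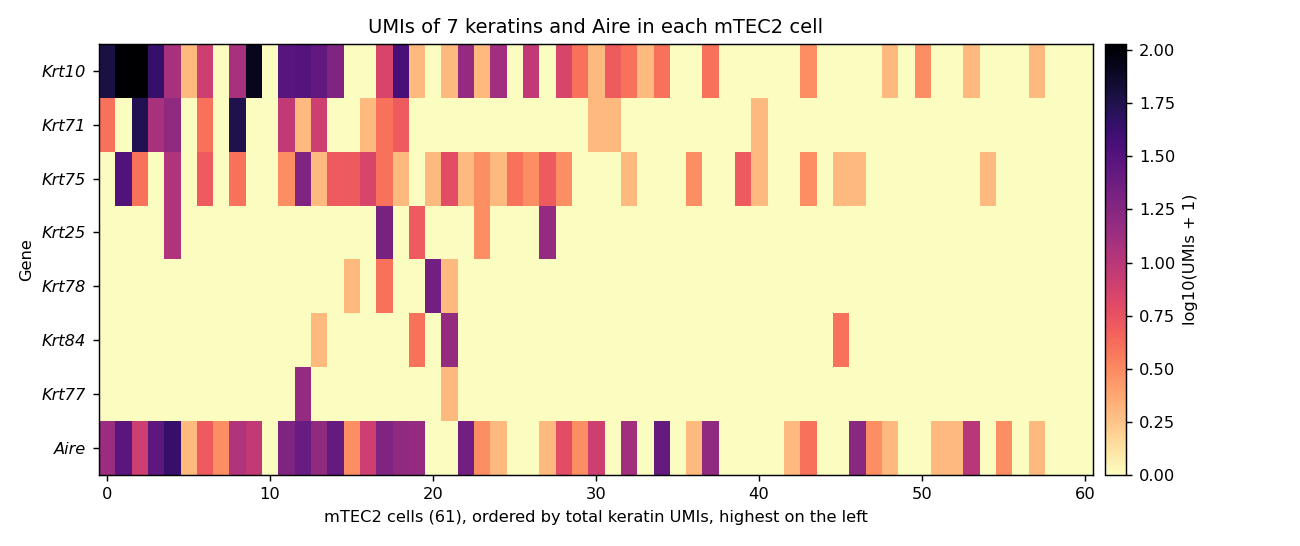
UMIs of 7 keratins and Aire (rows) in each of the 61 mTEC2 cells (columns, ordered by total keratin UMIs), coloured by log10(UMIs + 1). Krt10 and Krt75 occur in 34 and 30 cells, whereas Krt25, Krt78, Krt84 and Krt77 occur in 5, 4, 4 and 2 cells, each with 1 or more cells of 10 or more UMIs.

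At equal numbers of UMIs mTEC2 also showed the widest set of keratins among the labels of at least 20 cells. The mimetic(basal) label, with 12 cells and 99310 UMIs, was too small to enter. In 250000 UMIs drawn from each label, 24.5 keratins would be found on average in mTEC2, beside 17.4 in mimetic(tuft), 17.2 in mTEC-prol, 16.7 in mTEC1, 15.6 in cTEC, 14.6 in early Pr and 12.9 in aaTEC1. Yet a single mTEC2 cell was no richer: at 3000 UMIs the median cell had 5 keratins in mTEC2, 7 in mTEC1, cTEC and mTEC-prol, 6 in early Pr and 2 or 3 in the mimetic labels of at least 20 cells. Where 1 label had to stand at least 3-fold above every other label of at least 20 cells, only 2 of 21 keratins passed (9.52%), beside 6.88% of all genes, and both were mTEC2: Krt75, 3.83-fold above mTEC-prol, and Krt25, at least 5.35-fold above a floor of 3 UMIs. Markers of other cells differed between these labels too. The 4 myeloid markers, all detected, summed to 321 CPM in mTEC2 and 49.7 CPM in mTEC1, and the 4 mural markers to 53.7 and 771 CPM; their part in the keratin levels was not tested. As to thymocytes, 9 of 10 thymocyte markers were detected (Rag1 was at 0), summing to 190 CPM in mTEC2 beside 40.3 CPM in mTEC1, and 13 of the 61 cells had at least 3 such UMIs. In the other 48 cells Krt10 was at 592 CPM, Krt71 at 147 CPM and Krt75 at 108 CPM. Krt25 was at 29.0 CPM there, with 18 UMIs in 2 cells, too few for the rule. By the mean of the cells' own levels, its ratio to the next label was 2.71, under the 3-fold limit.

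In the mimetic labels of at least 20 cells, most cells had Krt8 at equal depth and few had Krt14. In mimetic(goblet), mimetic(tuft) and mimetic(muscle), Krt8 was at 1191, 1893 and 1403 CPM and Krt18 at 1249, 1594 and 1578 CPM. Krt5 was at 835, 342 and 299 CPM and Krt14 at 1053, 149 and 225 CPM, but in few cells: at 3000 UMIs a Krt14 UMI was found in 12.7%, 18.2% and 8.82% of cells. In mimetic(goblet) the basal keratins came from 6 cells of the cluster TEC-b, where Krt14 was at 10800 CPM and Krt5 at 8486 CPM, while the 49 cells of TEC-e had 9.04 CPM (3.63 to 18.6) and 15.5 CPM. The goblet name was not borne out by markers: in mimetic(goblet) 1 of 5 goblet markers was detected (1.2 CPM in sum; Spdef, Agr2, Muc2 and Muc5b at 0), while all 5 ionocyte markers were, at 739 CPM, beside 6.5 CPM in mTEC1. Ionocyte markers also stood at 607 CPM in mimetic(muscle), beside 634 CPM for its own 3 muscle markers, and at 831 CPM in aaTEC1. The aaTEC1 label shared the keratins of these cells: Krt8 at 1372 CPM and Krt18 at 1426 CPM, and among its 36 TEC-e cells at 3000 UMIs 0 had a Krt5 UMI while 91.7% had Krt8; not thinned, 4 of the 36 (11.1%, 3.11% to 26.1%) had a Krt5 UMI.

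The mimetic(basal) label, of only 12 cells, carried some keratins above every label of at least 20 cells, with Krt15 at 6001 CPM, Krt16 at 2276 CPM, Krt13 at 2185 CPM, Krt23 at 977 CPM and Krt1 at 967 CPM. Krt16 (with Krt6a, a pair of stressed or hyperproliferative epidermis) had 226 UMIs, of which 146 and 79 came from 2 cells. Krt1 had 96 UMIs, of which 82 came from 1 cell that also held 161 Krt15, 108 Krt13 and 20 Krt6a UMIs, and 20 different keratins. Other cells of the label were unlike it: 1 held 236 Krt15 and 115 Krt5 UMIs with no Krt1 or Krt16, and 1 held 56 Krt23, 79 Krt16 and 23 Krt79 UMIs with 196 of Krtdap, a keratinocyte differentiation gene, and no Krt5 or Krt14. The label thus joins cells with several unlike keratin sets, and its levels are not those of a typical cell. Pooled with the other mimetic cells (137 in all) and set against mTEC1, 7 of 22 keratins were higher, beside 6.05% of genes (Krt1, Krt6a, Krt16, Krt23, Krt76, Krt78 and Krt79; Krt6a and Krt76 were named after their values were seen), and 5 lower, beside 6.70% (Krt5, Krt14, Krt17, Krt19 and Krt71). All 7 higher keratins reached 20 UMIs only through the mimetic cells, with 0 to 18 UMIs in mTEC1, so their calls were nearly fixed in advance. Their count is not read as an excess over all genes. Without the 12 mimetic(basal) cells, an alternative chosen after the data were seen, 0 of 16 were higher, beside 5.47% of genes, and 8 lower, beside 7.21%, with Krt7, Krt13 and Krt15 added. Krt17 was then 7.93-fold (7.38 to 8.53) and Krt14 6.15-fold (5.78 to 6.54) below mTEC1.

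Krt4, a keratin of oesophageal and other moist epithelia that pairs with Krt13, had 14 UMIs in all, 4 of them epithelial and at most 2.25 CPM in a label of at least 20 cells (capEC), although Krt13 had 14986 epithelial UMIs. Krt12 was at 12.2 CPM in early Pr, 8.62 CPM in cTEC and 7.15 CPM in mTEC1, in 8.35%, 5.80% and 5.81% of cells. Krt42, another type I keratin, was at 11.4 CPM in early Pr, 10.2 CPM in cTEC, 10.1 CPM in mTEC1 and 21.7 CPM (13.1 to 33.9) in mTEC2. Keratins of 1 type are alike in sequence, and how reads matching 2 of them were counted is not given in the sources used here, so low levels beside abundant relatives, such as Krt42 or Krt16 beside Krt14 and Krt17 and Krt75 or Krt6a beside Krt5, are uncertain.

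Across the 24 labels of at least 20 cells, the genes whose levels ran most closely with a keratin were found by Pearson correlation of log2(CPM + 1) among 13998 other genes. For Krt5 they were Sfn (0.976), Tp63 (0.974) and Fermt1 (0.973), for Krt8 Krt18 (0.979), Shtn1 (0.975) and Spint1 (0.969), and for Krt10 Dio1 (0.930), Fut1 (0.917) and Cryl1 (0.914). The points share 1 library and the split between epithelial and other labels, and the values are descriptions.

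Outside the thymic epithelium keratin UMIs formed a low floor with a few exceptions. In the 5 fibroblast labels (TMC1 to TMC4 and capFb) the summed level was 80.5 to 121 CPM, and a Krt14 UMI was found in 10.7% to 12.3% of cells. Cells with at least 10 keratin UMIs were few there, 3 to 8 per label. In the B cell label, by contrast, 27 of 179 cells held 97.1% of the label's keratin UMIs, and 26 of those 27 had an Epcam UMI; without them its level fell from 1833 to 64.4 CPM. In the Myeloid label 17 cells held 68.1%, and without them the level was 71.9 CPM. Median depth of the 27 cells of the B cell label was 18354 UMIs, beside 13994.5 in the rest, and whether they are mixtures of 2 cells was not tested. Summed levels were also higher in nmSC (906 CPM), aEC (439 CPM) and capEC (230 CPM). There 5 of 39, 4 of 90 and 10 of 636 cells held 88.3%, 80.4% and 50.3% of the keratin UMIs. In the thymocyte library, made apart, the summed level over all labelled cells was 35.8 CPM (34.4 to 37.3). Krt7 led with 613 UMIs, 462 of them in the DP label, then Krt18 with 560, Krt10 with 383 and Krt42 with 284, while Krt14 had 54 and Krt5 71. Of these, 47 Krt14 and 69 Krt5 UMIs lay in the 170 cells of the label B+myeloid, at a summed level of 209 CPM.

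The floor has the proportions of the epithelium for some keratins and not for others. For each 100 Krt14 UMIs, the epithelial labels held 2.66 Krt10 UMIs, and the fibroblast labels together 94.4 (86.7 to 103), or 35.5 times the epithelial proportion, with Krt10 at 9.17 to 15.6 CPM in each of them. Krt23 and Krt20 did so in 1 fibroblast label above all. Krt23 was at 20.9 CPM (18.3 to 23.7) in TMC4, with 241 UMIs in 162 of 1249 cells, 2.84 CPM in TMC3 and under 1 CPM in the 3 other fibroblast labels. Krt20, known from intestinal and urothelial epithelium, was at 14.5 CPM (12.3 to 16.8) in TMC4, with 167 UMIs in 134 cells, and 2.94 CPM in TMC3. Per 100 Krt14 UMIs these were 151 for Krt23 and 104 for Krt20 in TMC4, against 0.21 and 0.02 in the pooled epithelium. Krt23 was not particular to TMC4: it was at 17.1 CPM in mTEC2, on 15 UMIs, and high in mimetic(basal), as given above. Neither keratin stood 3-fold above every other label of at least 20 cells. Both were found in 30 cells, 22.4% of the Krt20 cells and 18.5% of the Krt23 cells. The 2 genes lie next to each other on chromosome 10, with 0 annotated genes between them, and their promoters are printed above. TMC4 cells had Dcn at 2026 CPM and Epcam at 3.7 CPM.

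The vSMC_PC label had Krt23 at 8.60 CPM, but 18 of its 29 UMIs came from 1 cell. Further keratins stood out from the floor in non-epithelial labels; Krt2, Krt72, Krt76 and Krt79 were named after their values were seen. Krt79 was at 19.7 CPM in the Myeloid label, in 89 of 505 cells and with at most 4 UMIs in a cell. Krt76 was at 6.33 CPM in TMC2, in 148 of 3080 cells. Krt1, the epidermal keratin, was at 15.1 CPM (11.7 to 19.2) in the label capEC, in 58 of 636 cells and never with more than 2 UMIs, beside 0.66 CPM in early Pr, 1.24 CPM in mTEC1 and 17.1 CPM in mTEC2. Krt72 was at 2.66 CPM in capFb, in 41 cells. Krt2 was at 2.85 CPM in TMC1 (40 UMIs) and 2.54 CPM in capFb (41 UMIs). In the label aEC, of 90 cells, Krt2 was at 9.99 CPM, but on fewer than 20 UMIs.

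**Figure D5:**
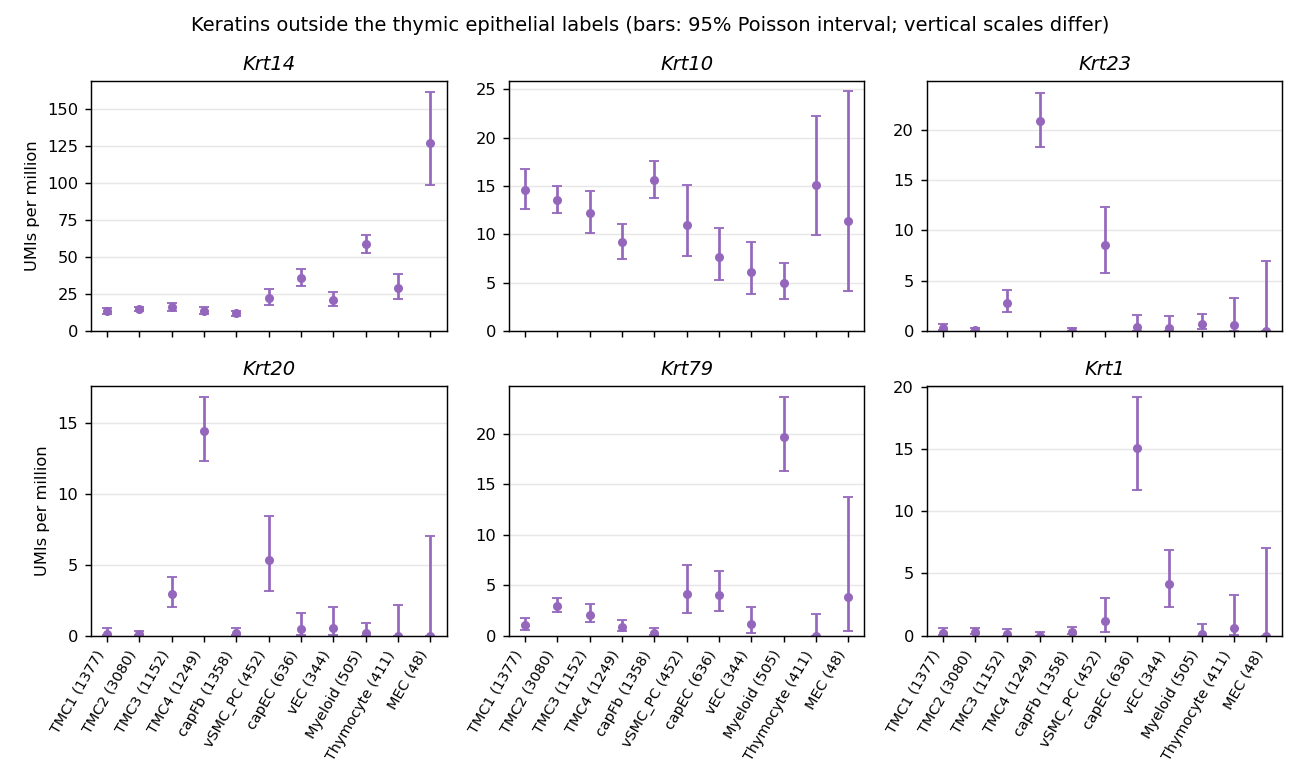
Levels of 6 keratins (CPM, 95% Poisson intervals) in 11 labels outside the thymic epithelium, with cell numbers in brackets and a vertical scale for each keratin. Krt14 lies at 12 to 16 CPM in all fibroblast labels, whereas Krt23 and Krt20 peak in TMC4, Krt79 in Myeloid and Krt1 in capEC.

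The MEC label, counted here outside the thymic epithelium, had a keratin set of its own. In its 48 cells Krt19 was at 1469 CPM (1367 to 1576), above every other label of at least 20 cells, with Krt13 at 446 CPM, Krt8 at 437 CPM, Krt14 at 127 CPM, Krt18 at 74.0 CPM and Krt5 at 45.6 CPM. Krt19 UMIs were found in 44 of the 48 cells. Krt8 outnumbered Krt18 by 5.90 to 1 (4.19 to 8.51), a ratio that was 0.89 to 1.55 in the thymic epithelial labels of at least 20 cells. At 3000 UMIs, Krt8 without Krt5 was found in 59.6% of MEC cells and both in 2.1%. Markers of mesothelium, the lining of body cavities, were high in MEC: 4 of 5 were detected (Calb2 was at 0), summing to 5298 CPM beside 29.3 CPM in cTEC, with Msln at 3513 CPM, and Epcam was at 30.4 CPM. The 6 fibroblast markers summed to 16929 CPM there, and their part in the keratin levels was not tested.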

How the data were processed

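The 2 droplet libraries were analysed. The authors deposited UMI counts per gene and cell, whose file headers name Cell Ranger 8.0.0; mRatBN7.2 as build and Seurat 5.3.0 come from the submitters' processing notes. The annotation, chemistry version, cell filters and doublet treatment are not given in the sources used here, and no doublet caller was run here. Cell labels are those the authors deposited.

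UMIs were summed over the cells of a label and scaled to 1000000 (CPM), with exact Poisson intervals for levels, exact binomial intervals for ratios of UMIs and exact Clopper-Pearson intervals for shares, all at 95% and covering counting error only. A gene entered a comparison with at least 20 UMIs in both groups together and was called at a 3-fold difference; for the call a group with fewer than 3 UMIs was set to a floor of 3, while printed ratios use the UMIs observed unless a floor is named. A gene rare in 1 group can reach 20 UMIs only through the other, which leans its call toward that other group. With 1 stromal sample no p-value was computed. Shares of cells were compared after thinning each cell to 3000 UMIs (seed 7), and numbers of keratins at 250000 UMIs per label. The fold rule, tested on simulated data of mTEC1 against cTEC (34034 genes, 200 changed), called 100% of genes changed 6-fold, 0% of those changed 2-fold and 0.146% of unchanged genes. The simulated counts were Poisson draws of label sums, without spread between cells. Changes were planted only in genes with at least 100 UMIs. The rates for changed genes thus do not cover genes with fewer UMIs, and none of the rates covers calls that rest on a few cells.

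Values are given for keratins with at least 100 UMIs in epithelial cells, for a fixed set of the best known ones, and for keratins led by 1 label; related genes are named where they passed the fold, and others where stated. The members, lists and markers were chosen with earlier results of these data known. Promoters came from RefSeq on GRCr8, a different build from that of the counts, and were matched by symbol. Computations ran in Python 3.11.15 on pandas 2.3.3, NumPy 2.4.6 and SciPy 1.17.1, with plots by matplotlib 3.10.9. Alternatives covered the fold, the UMI minimum, the averaging, thinning depth, the genes in the total, sets of cells left out and the authors' clusters in place of the labels.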

Additional observations from a re-analysis of the deposited data

Results flagged for a closer look

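Keratin UMIs also lay in barcodes that carry no label and enter no comparison above. The 2934 unlabelled barcodes of the stromal library held 27971 keratin UMIs, a level of 3228.68 CPM (3190.95 to 3266.74), beside 2669.78 CPM in the labelled cells, at a median of 1219.5 UMIs per barcode against 9087.5. Among them, 67 barcodes with more genes than any labelled cell had a keratin level of 5573.32 CPM (5489.77 to 5657.83) at a median of 42415 UMIs, with Krt14 at 846 CPM, Krt8 at 720 CPM and Krt10 at 193 CPM. Those 67 held 16965 of the 27971 keratin UMIs and 3043967 of the 8663291 UMIs of all unlabelled barcodes. The level of the whole set thus leans on them and is not that of a typical unlabelled barcode. They are given because these barcodes lie outside the comparisons and hold more than a floor of 3 UMIs (0.346 and 0.986 CPM), which says nothing of where the transcripts came from.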

How the results depend on the processing

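No paired analysis was possible because each library is a single sample. Some single keratins changed direction when cells were left out. Without mimetic(basal), the ratio of mimetic to mTEC1 went from 18.8 to 0.595 for Krt23 and from 2.15 to 0.649 for Krt75, and the median keratin from 0.28 to -1.17 on the log2 scale. With only cTEC cells of TEC-a and a floor of 3 UMIs, 6 of 14 keratins changed direction in early Pr against cTEC. Krt14 went from 0.929 to 23.1 and Krt19 from 0.916 to 51.2. In mTEC1 against cTEC 5 of 16 did. Both counts include a change made by the floor alone: Krt23 in early Pr (47 UMIs against 0) and Krt75 in mTEC1 (22 against 0, 0.670 on the floor). By the UMIs observed, Krt23 stayed higher in early Pr and Krt75 in mTEC1. Krt10 in early Pr became 1.05, with an interval of 0.712 to 1.60. With only the cTEC cells of TEC-b, 3 of 14 changed direction in early Pr against cTEC, and Krt1 became 1.41 in mTEC1 against cTEC on that floor. For mTEC1 against cTEC, where 5 keratins passed, 2 did at 5-fold, 3 with at least 50 UMIs, 3 by the mean of the cells' CPM and 8 with only the cTEC cells of TEC-a. For early Pr against cTEC, where 1 passed, 3 did at 2-fold, 0 with at least 50 UMIs, 2 with no filter on low counts, 3 by the mean CPM, 7 with only cTEC cells of TEC-a and 0 with only those of TEC-b. For early Pr against mTEC1, where 5 passed, 8 did at 2-fold, 3 at 5-fold and 8 with no filter. Keratins led by 1 label, 2 in all, were 4 at 2-fold, 1 at 5-fold and 1 by the mean CPM. The count against mTEC1 stayed within 1.5 times for mTEC2 and the mimetic cells, though without mimetic(basal) the latter went from 7 higher and 5 lower to 0 higher and 8 lower. Restricting cTEC to 1 cluster, leaving out TEC-c and Endo-2, and leaving out mimetic(basal) were chosen after the data were seen.

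Summed levels by the mean of the cells' CPM were 12805.6 in cTEC, 11010.1 in early Pr, 14534.8 in mTEC1, 12872.1 in mTEC-prol and 6830.46 in mTEC2. Without mitochondrial, ribosomal and haemoglobin genes in the total they were 14804.3, 13023.2, 17871.2, 15960.4 and 8839.43 CPM in that order. Without TEC-c and Endo-2 they were 13543.4 in cTEC, 11922 in early Pr and 16147.6 in mTEC1, and without cells of 3 or more thymocyte-gene UMIs 15474.6 in mTEC1. Cells with both Krt5 and Krt8, thinned to 1000 UMIs, were 39.6% of cTEC, 31.5% of early Pr, 49.4% of mTEC1, 57.9% of mTEC-prol and 21.7% of mTEC2. Not thinned, they were 90.6% of cTEC, 92.5% of early Pr and 93.6% of mTEC1, and with at least 2 UMIs of each 85.3% of cTEC and 82.3% of early Pr, so that cTEC stood above early Pr in each of these except with 1 UMI of each and no thinning. With the authors' cluster that holds most of a label in place of the label, 17 of 50 single levels moved by over 1.5 times: in TEC-d, used for mTEC2, Krt14 was at 1957 CPM in place of 234, Krt17 at 3668 in place of 642, Krt5 at 2601 in place of 842 and Krt10 at 237 in place of 727, and for mTEC1 Krt10 was at 237 in place of 39.8. Most cells of TEC-d are not mTEC2. Depth limits the keratins with few UMIs, and 1 library per kind of cell leaves the spread between animals unknown.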
